A study of Saccharomyces cerevisiae with 18 samples.

Results

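Of the 7215 Sko1 peaks deposited for unstressed budding yeast, 2478 were at least 100 bp wide, and 2443 of these shared at least 1 base with a Sko1 peak called after osmotic shock. These 2443 peaks, present before and after shock, were 33.9% of the unstressed list. They were chosen by width and overlap, both read from the same lists, so their presence in both conditions is a selection and not a result. The remaining 35 wide peaks had no shock counterpart.

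Sko1 is a DNA-binding protein of the basic leucine zipper class, of the ATF/CREB family. In unstressed yeast it is known to recruit the Tup1-Cyc8 corepressor to its targets. The MAP kinase Hog1, which is activated when the medium becomes hyperosmotic, phosphorylates Sko1 and is known to convert it into a factor that helps to induce target genes. The study describes separate classes of Sko1 site, where binding either falls or rises after shock. It found that this phosphorylation was dispensable for the binding that shock induces. Hot1 is a second factor that acts with Hog1 at stress genes, among them genes of glycerol metabolism and uptake.

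All libraries came from Saccharomyces cerevisiae grown in liquid YEPD, a rich medium, at 30°. Unstressed cells had more YEPD added (mock-treated), and osmotic shock was 0.4 M KCl for 5 minutes. Sko1 carried an HA epitope tag at its own chromosomal locus in an otherwise wild-type strain and was precipitated with the 12CA5 anti-HA antibody. Hot1, HA-tagged as well, was precipitated in both conditions, and only its peaks after shock were read here. A mock immunoprecipitation used the same antibody in cells with no precipitation target, and input chromatin was sequenced from both conditions. Rpb3, a subunit of RNA polymerase II, was precipitated untagged with antibody 1Y26 from wild type, from the HOG1 deletion (Dhog1) and from the double deletion of SKO1 and HOT1 (Dsko1Dhot1), and HA-tagged Hog1 was precipitated from wild type and Dsko1Dhot1. Each strain and condition had 1 library, so no difference below has a replicate check, none carries a p-value, and every contrast compares libraries. The study's methods give the depth of the Hog1 and transcription factor libraries only as a common range of reads, so the depth of each Sko1 and Hot1 library was not known here. Peak height is the number of overlapping tags at the summit, and enrichment is the ratio of the precipitate to input as deposited.

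Most of these peaks were low. Mock-treated height ran from 35 to 8590 tags with a median of 106, and 1468 members (60.1%) stood less than 1.5 times above the height that the peak caller required at their position. Mock-treated enrichment had a median of 1.90 and ran from 0.607 to 50.8. Enrichment was under 2 in 1359 members (55.6%) and under 1 in 28. Only 129 members (5.28%) had an enrichment of 5 or more, and 42 had 10 or more. These 129 are called strong members below, a limit chosen after the values were seen. The whole set was therefore a small number of high peaks beside a large number of peaks close to the calling limit.

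The highest enrichment belonged to a pair of high peaks. The peak at chr4:449543-450061 had 6083 tags mock-treated and 6851 after shock, with enrichment of 50.8 and 46.7. The peak at chr13:267886-268334 had 6710 and 8325 tags, with enrichment of 50.6 and 43.9. Both kept nearly the same extent, 519 and 504 bp for the first and 449 and 451 bp for the second. Another peak, at chr15:988991-989560, had an enrichment of 40.5 mock-treated and 20.8 after shock, although its height went from 2877 to 4246 tags. No gene was assigned to these positions here, because the coordinates are those of the sacCer2 build and no annotation of that build was at hand.

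Height and enrichment did not rank the peaks alike. The greatest height, 8590 tags mock-treated and 14044 after shock, stood at chr12:459687-460661, where the enrichment was only 1.30 and 1.61. The Hot1 peak there was the highest at any member, with 10156 tags and an enrichment of 1.13. High tag counts at this position were thus read for both factors, at a level little above input. Of the 10 highest members, 7 were also among the 20 with the greatest enrichment.

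The width limit cut through a continuous range of values. The 5 narrowest members taken first by position, each exactly 100 bp wide, had mock-treated heights of 78 to 104 tags and enrichment of 1.39 to 1.78. The 5 peaks of 99 bp just outside the limit had heights of 84 to 97 tags and enrichment of 1.32 to 1.96. Of the 4737 narrower mock-treated peaks, 3804 (80.3%) also overlapped a shock peak. The members were thus not set apart from narrower peaks at the limit.

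The 35 wide peaks with no shock counterpart were low as well, with a median height of 89 tags and a median enrichment of 1.78. They were not spread evenly. Of the 35, 15 lay in a single stretch of chromosome 7, from base 900001 to 1000000. The threshold was constant within 127 of the 129 windows of 100000 bases that held mock-treated peaks, and here the threshold was 81 tags mock-treated but 243 after shock, against medians of 75 and 119 over all peaks. Only 8 shock peaks were called in that window, where 48 mock-treated peaks stood. The same window held the highest shock peak of the list, 65594 tags, which overlapped no mock-treated peak. The absence of a shock counterpart there moved with the threshold, and whether Sko1 had left these positions was not tested. The remaining 20 lay elsewhere.

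The positions of the paired peaks were compared next, and since the rule required an overlap, their closeness is in part fixed by the choice. The centre of the shock peak was a median of 17 bases from that of the member, and 1055 members (43.2%) lay wholly inside a single shock peak. For the 106 strong members whose width changed by less than 2-fold and whose shock peak held no other member, the distance between centres was a median of 9.75 bases. With 1 member taken per shock peak, the mock-treated and shock values of the 2288 pairs had a Spearman rho of 0.90 for height and 0.85 for enrichment, and among the 129 strong members the rho for enrichment was 0.66. These correlations are descriptions across peaks, which are not independent replicates, and the values share a peak caller and the base composition of each site. Of the 20 members with the greatest mock-treated enrichment, 12 were also among the 20 with the greatest shock enrichment.

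Every member was higher after shock in tags, and the calling thresholds were higher too. Median height was 106 tags mock-treated and 178 after shock. The log2 ratio of heights had a median of 0.71 and ran from 0.13 to 4.63. The caller's thresholds rose almost as much, by a median log2 of 0.67. When each height was divided by its own threshold, the median log2 ratio was 0.04, and 1041 members (42.6%) were lower. A rise in tags at a member is therefore given below beside the shift that all peaks shared.

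In tags, 194 members were at least 2-fold higher after shock and 0 were at least 2-fold lower. Over all 6247 mock-treated peaks with a shock counterpart, 10.5% were at least 2-fold higher and 0% were 2-fold lower, so the share among members, 7.94%, was not above the background. Relative to threshold, 32 members were at least 2-fold higher and 3 lower. The 3 lower ones all lay in the chromosome 7 window described above, with thresholds of 81 mock-treated and 243 after shock, and rose in tags. No share over all peaks was computed for the counts relative to threshold. The rule that chose the members read the same pair of libraries, so these counts are descriptions.

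**Figure D1:**
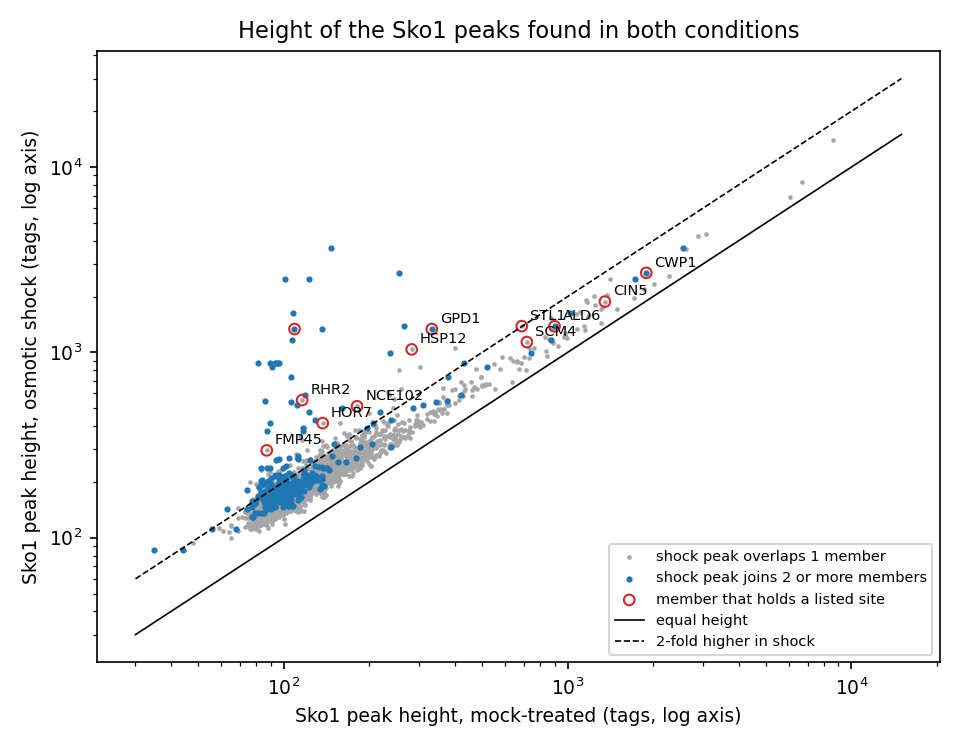
Height of each of the 2443 Sko1 peaks, mock-treated (x axis, tags) against osmotic shock (y axis, tags), both on log axes, with 1 library per condition. All points lie above the line of equal height, and the points farthest above the line of 2-fold rise are mostly low mock-treated peaks (blue) that 1 wide shock peak joined to other members. Red circles mark the 12 members that hold a site listed by the study; the unlabelled circle is the lower of the GPD1 members.

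The largest rises were at members joined by 1 shock peak. After shock, 136 shock peaks each covered 2 or more members, up to 7, and together held 291 members. On chromosome 15, members at chr15:381975-382089 (101 tags), chr15:382498-382752 (123 tags) and chr15:382859-383520 (1728 tags) all fell within 1 shock peak of 2441 bp and 2480 tags. The first of these thereby had a log2 ratio of 4.62, and the last, which carried most of the tags, had 0.52. The largest ratio of all, 4.63, belonged to chr15:797678-798349, a peak of 147 tags joined with its neighbour chr15:796976-797538 of 2542 tags. When the highest member stood for each shock peak, 123 of 2288 (5.38%) remained at least 2-fold higher, and the largest log2 ratio was 2.25, at the RHR2 promoter peak described below.

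The smallest rises belonged to high peaks that were joined with no other member. The peak at chr15:326258-327226 had 634 tags mock-treated and 694 after shock, a log2 ratio of 0.13. The peak at chr3:114064-114946 had 1312 and 1443 tags, a log2 ratio of 0.14. Next came chr4:449543-450061, the peak of greatest enrichment, with 0.17. All 3 lay below the shift in the thresholds, with log2 ratios relative to threshold of -0.49, -0.52 and -0.58. Across the 129 strong members, 98 were lower relative to threshold, with a median log2 of -0.19, whereas the median over all members was 0.04.

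Enrichment over input moved the other way from tags. It was lower after shock in 1713 members (70.1%), higher in 717 and equal in 13, with a median log2 ratio of -0.14. It was at least 2-fold lower in 31 of the 2443 members and at least 2-fold higher in 7. Over all 6247 mock-treated peaks with a shock counterpart the counts were 47 (0.752%) and 24 (0.384%). The share of those 6247 with any lower enrichment was not computed, so a shift common to all peaks was not set apart. Enrichment was lower in 113 of the 129 strong members (87.6%), with a median log2 of -0.36, and in 1600 of the 2314 others (69.1%), with a median of -0.13. Since the classes were cut on the mock-treated enrichment itself, some of this contrast is built into the choice. Read the other way, 90 members had an enrichment of at least 5 in both conditions, 39 mock-treated only and 15 after shock only.

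How far enrichment fell went with how far the shock peak had widened. The 17 strong members whose shock peak was at least 2-fold wider had a median log2 enrichment ratio of -1.25, and 14 of them fell at least 2-fold. The 112 others had a median of -0.34, and 10 fell at least 2-fold. Height behaved differently, with median log2 ratios of 0.68 in the 17 and 0.46 in the 112. For its screened peaks the study defines enrichment as precipitated over input reads in a short stretch at the peak centre, a definition that may not be that of the deposited column, and the part of width in the fall was not tested. In the 106 strong members described above, whose width changed by less than 2-fold in either direction, enrichment was lower in 92, with a median log2 of -0.34. In all, 402 members (16.5%) had a shock peak at least 2-fold wider, against 41.7% of all mock-treated peaks with a shock counterpart, and 92 had one at least 2-fold narrower.

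**Figure D2:**
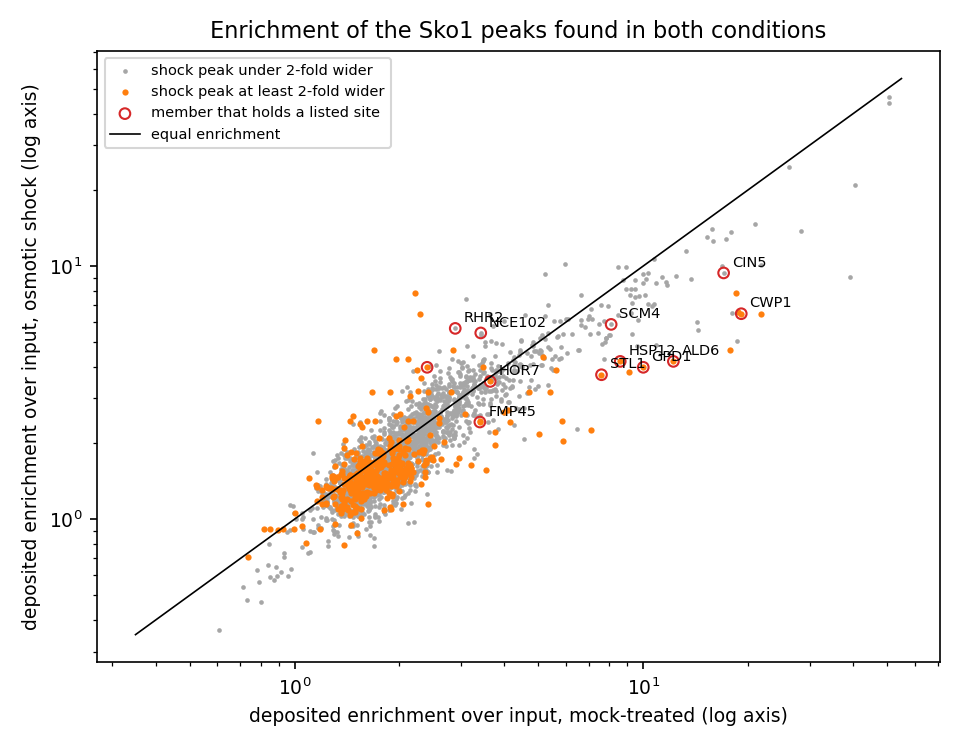
Deposited enrichment over input of each of the 2443 Sko1 peaks, mock-treated (x axis) against osmotic shock (y axis), both on log axes, with 1 library per condition. Orange points are members whose shock peak was at least 2-fold wider, and among points with mock-treated enrichment of 5 or more the 17 orange ones lie mostly below the grey ones. Red circles mark the 12 members that hold a listed site; the unlabelled circle is the lower of the GPD1 members.

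Some members lay at the very start of a chromosome. Within the first 1000 bases of a chromosome lay 10 members, 6 of them strong, and 9 of the 10 had lower enrichment after shock. The peak at chr4:57-164 had 117 tags and an enrichment of 28.4 mock-treated, and 260 tags and 13.8 after shock. The peak at chr3:37-423 had 244 tags and 18, then 558 tags and 6.55. None of the 10 exceeded 244 tags mock-treated, and the 4 that were not strong had enrichment from 1.76 to 2.55. A further 28 strong members with fewer than 250 tags lay outside the first 1000 bases. Only the starts of chromosomes were marked, so how many of the 28 lay near a far end was not determined. The largest fall in enrichment of any member, from 39.1 to 9.07, was at chr14:784027-784301, where the height went from 255 to 800 tags. The distance of this peak from the end of its chromosome was not determined.

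The file also numbers a chromosome 17, which follows the 16 nuclear chromosomes of yeast and which it does not name. Its 42 members had a median mock-treated enrichment of 1.27 and 0.83 after shock, against 1.91 and 1.70 on chromosomes 1 to 16. Enrichment was under 1 in 17 of the 42 and in 11 of the other 2401. Hot1 peaks overlapped 40 of the 42.

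Hot1 peaks called after shock overlapped 1783 of the 2443 members (73.0%), and 918 members had a Hot1 peak whose centre lay within 50 bp of their own. The background was as large, since 72.6% of all mock-treated Sko1 peaks of at least 100 bp overlapped a Hot1 peak, and most of those are the members themselves. Over all mock-treated peaks of any width the share was 55.5%, over the 4737 narrow peaks 46.6%, and over the 35 wide peaks without a shock counterpart 42.9%. The 920 shock peaks of at least 100 bp that had no mock-treated counterpart overlapped a Hot1 peak at a share of 75.4%. By width, the share was 65.9% of members from 100 to under 200 bp and 94.8% of those of 800 bp or more, and a wider peak has more bases in which to meet another list.

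Most of the Hot1 peaks at members were themselves weak. Their enrichment had a median of 1.58 and was under 2 at 1267 members (71.1%). A Hot1 peak overlapped 64 of the 129 strong Sko1 members (49.6%) and 1719 of the 2314 others (74.3%). The strong members were wide, with a median of 442 bp against 195 bp for all members. The lowest share was in the class with enrichment from 5 to 10, 41.4% of 87, and the share was 66.7% of the 42 with enrichment of 10 or more. This difference was not tested, because neighbouring peaks of 1 library are not replicates.

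**Figure D3:**
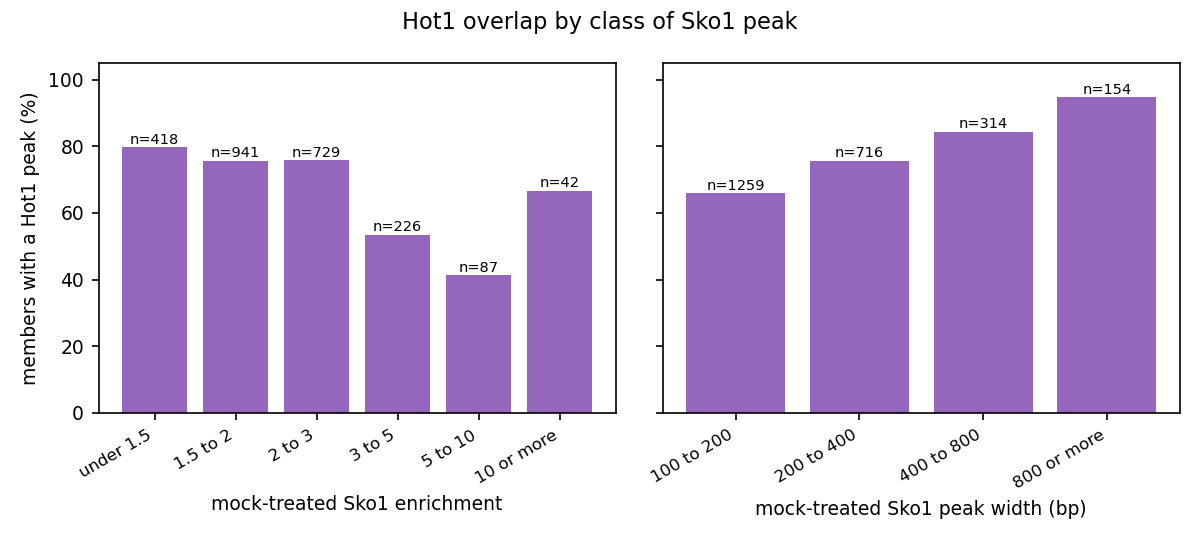
Percent of members that overlap a Hot1 peak by at least 1 base (y axis), by class of mock-treated Sko1 enrichment (left) and of mock-treated Sko1 peak width in bp (right), with the number of members above each bar. The share falls to 41.4% in the enrichment class from 5 to 10 and rises with width to 94.8%.

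Hot1 enrichment was 5 or more at 35 members, and 13 of these (37.1%) passed that level in mock-treated Sko1 as well, beside 5.28% of all members. Both values are ratios to input, and whether low input at a site raised both was not tested. At chr8:562404-562567 Sko1 enrichment was 15.9 with 163 tags mock-treated, and Hot1 enrichment 9.95 with 224 tags. How far this peak lay from the end of its chromosome was not determined. In 8 of the 13 the centres of the Sko1 and Hot1 peaks lay within 100 bases. The highest Hot1 enrichment at a member, 12.6, was at the HSP12 promoter, and the next, 10.6, was downstream of SCM4. At chr13:267886-268334, among the highest Sko1 peaks of all, Hot1 reached 1002 tags and an enrichment of 9.01.

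Gene names could be given to 12 members, which contained a site position that the study lists for 20 genes occupied by Hog1. These 12 members lay at 11 genes, 10 in promoters and 1 downstream. The genes were chosen by the study on Hog1 occupancy after shock in these same libraries, so they are not a sample of the members, and their transcription after shock is no independent evidence about Sko1. Of the other 9 genes, CTT1 and YER053C-A had a mock-treated peak under 100 bp at a listed site, and 7 had no mock-treated peak at one. These 7 were RTC3, PDC6, PIL1, PRM10, FMP43, HXT1 and HXT5.

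CIN5 and CWP1 carried the strongest of the 12. CIN5 encodes a basic leucine zipper transcription factor linked to salt tolerance, and CWP1 a mannoprotein of the cell wall. At the CIN5 promoter (chr15:384689-385057) Sko1 height went from 1353 to 1879 tags and enrichment from 17 to 9.39. At the CWP1 promoter (chr11:260048-260595) height went from 1892 to 2685 tags and enrichment from 19.1 to 6.48, as the peak widened from 548 to 1741 bp. Both rose in tags by less than the threshold did, with log2 ratios relative to threshold of -0.14. CIN5 had no overlapping Hot1 peak, alone among the 12, and at CWP1 the Hot1 enrichment was 2.40. The study reports weakened expression of some Hot1 targets in its tagged strains, and proposes that the tags may alter Hot1 binding or activity. A missing Hot1 peak here does not show that Hot1 was absent.

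The genes of glycerol production and uptake had lower peaks before shock. GPD1 encodes glycerol-3-phosphate dehydrogenase, RHR2 a glycerol-3-phosphatase and STL1 a glycerol symporter of the plasma membrane. At the GPD1 promoter the main member (chr4:411332-411580) went from 332 to 1336 tags, and it was joined with chr4:411007-411145 and chr4:410327-410584 in a single shock peak of 2823 bp. At the RHR2 promoter (chr9:254332-254581) height went from 116 to 553 tags and enrichment from 2.89 to 5.67. At the STL1 promoter (chr4:1506974-1507663) height went from 689 to 1385 tags and enrichment from 7.59 to 3.72. The peak at STL1 widened from 690 to 2419 bp. In contrast, the study shows the STL1 promoter among its examples of binding peaks that gain enrichment under stress. Its own measure covers a short stretch at the peak centre, which the deposited column may not. The reason for the opposite direction at STL1 was not tested. Relative to threshold the log2 height ratios were 1.26 at the main GPD1 member, 1.51 at RHR2 and 0.04 at STL1. Enrichment at the main GPD1 member went the other way, from 10 to 3.98, a log2 ratio of -1.33 beside -1.03 at STL1 and 0.97 at RHR2. Hot1 enrichment was 6.30 at GPD1, 5.83 at RHR2 and 7.12 at STL1.

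The 3 members at genes of the cell surface and of general stress were mixed. HSP12, a small heat shock protein that associates with membranes, had a promoter peak (chr6:106565-106853) of 282 tags mock-treated and 1037 after shock, and its enrichment went from 8.59 to 4.2. NCE102, a protein of the eisosome domains of the plasma membrane, had a peak (chr16:828793-829493) of 181 and 512 tags with enrichment of 3.42 and 5.44. FMP45, a membrane protein of the SUR7 family, had a peak (chr4:62227-62333) of only 87 tags, 107 bp wide, which lay in a shock peak of 296 tags and 1624 bp, and its enrichment went from 3.4 to 2.42. Relative to threshold the log2 ratios were 1.12, 0.77 and 1.04.

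The last 3 genes were HOR7, ALD6 and SCM4. HOR7 is named for its response to hyperosmolarity, ALD6 encodes a cytosolic aldehyde dehydrogenase, and SCM4 a protein of the mitochondrial outer membrane. The HOR7 promoter peak (chr13:774090-774524) went from 137 to 415 tags, and its enrichment from 3.64 to 3.50. The ALD6 promoter peak (chr16:431648-432444) went from 899 to 1382 tags, while its enrichment went from 12.2 to 4.2 and its width from 797 to 2712 bp. The SCM4 member, downstream of the gene (chr7:592042-593190), went from 718 to 1137 tags and from 8.09 to 5.88 in enrichment. ALD6 and SCM4 stayed below the shift of the thresholds, at -0.11 and -0.12 on the log2 scale, and HOR7 was above it at 0.91.

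The shock peaks at these genes reached further toward the gene than away from it, in part over ground that a neighbouring mock-treated peak already covered. The strand was read from the W or C of the systematic gene name, and the bases that the shock peak added on each side of the member were counted. The shock peak reached a median of 1172 bases further on the side of the coding sequence and 67 bases on the other side. The 12 members lay in 11 shock peaks, since the GPD1 pair shared 1 and is counted at each. The added stretch was longer on the gene's side at 11 of the 12 members, CIN5 being the exception, with 49 bases toward the gene and 212 away. No such count could be made at other members, which were not placed beside a gene, so a background share is lacking. The 11 genes were also chosen by the study for Hog1 over the coding sequence. At 9 members it added at least 500 bases toward the gene, and at 7 after bases inside another mock-treated peak were left out, with a median of 793 bases. At ALD6 it added 1915 bases toward the gene and 0 away, but 1762 of the 1915 belonged to the joined member chr16:432536-434297, and at CWP1 1004 of 1192 belonged to chr11:260695-261698. At STL1 it added 1707 bases toward the gene, 55 of them in another mock-treated peak, and 22 away. At GPD1 the shock peak also reached 1087 and 762 bases away from the gene, as counted from each member. At SCM4 the shock peak reached 657 bases further on the side of the gene, and how many of these lay over the coding sequence was not computed.

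**Figure D4:**
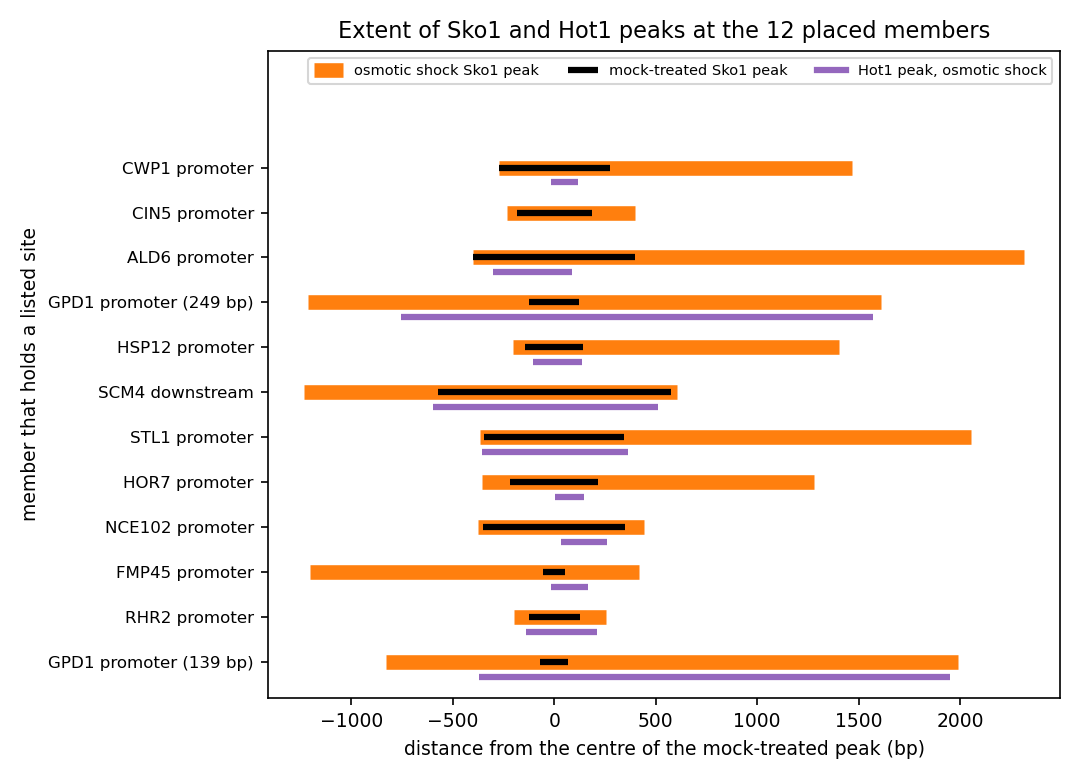
Extent of the mock-treated Sko1 peak (black), the osmotic shock Sko1 peak (orange) and the overlapping Hot1 peak (purple) at the 12 members that hold a listed site, as distance in bp from the centre of the mock-treated peak, ordered by mock-treated enrichment; other mock-treated peaks are not drawn. The shock peaks of ALD6, STL1, CWP1, HSP12 and HOR7 extend mainly to the right, where the coding sequence lies; FMP45 is on the opposite strand and extends to the left, and the SCM4 peak, which lies downstream of its gene, also extends left.

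The immunoprecipitation without a target also rose over these coding sequences. Signal in the ORF table is read coverage over the open reading frame, and folds were taken as log2 of the ratio after 989 units, 0.1 of the median mock-treated input, were added to each value. The mock immunoprecipitation, made with the same anti-HA antibody, was at least 2-fold higher after shock at all 11 genes, against 2.10% of 6013 ORFs, with log2 values from 1.14 at CIN5 to 2.96 at GPD1 and a median of 1.93. Its signal over GPD1 was 8090 mock-treated and 69900 after shock, and over HSP12 8810 and 59700. Input changed less, with a median log2 of 0.52 at the 11 genes and a fold of 2 or more at GPD1 alone, against 0.0166% of ORFs. The part of this untargeted signal in the widened Sko1 peaks was not tested.

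RNA polymerase II rose at all 11 genes in the wild type. The log2 ratio of Rpb3 signal, shock over mock-treated, was at least 1 at 11 of 11, against 4.49% of 6013 ORFs, and at most -1 at 0, against 7.73%. Its median was 3.95, and the median of all ORFs was 0.04. The signal over HSP12 went from 6920 to 601000, over GPD1 from 10600 to 864000, and over STL1 from 5140 to 324000. The smallest rise was at RHR2, where signal was already 171000 mock-treated and reached 595000, a log2 ratio of 1.79. ALD6, with 192000 and 757000, was likewise high before the shock, so a Sko1 peak before shock was found both at genes with much polymerase and at genes with little.

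In cells without Hog1, HOR7 was the one gene of the 11 that rose 2-fold. In Dhog1, 1 of the 11 genes rose at least 2-fold, against 1.03% of ORFs, and 0 fell, against 0.0665%. HOR7 had a signal of 12000 mock-treated and 48700 after shock. The median log2 ratio was 0.32. CIN5 went from 4820 to 3810 and HSP12 from 5560 to 5250. Before shock, signal in Dhog1 was already below wild type at every gene but STL1. It was 7550 against 32500 at CWP1, 49900 against 171000 at RHR2, and 9410 against 5140 at STL1. No share over all ORFs was computed for this unstressed contrast, and it was not tested.

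Without Sko1 and Hot1 the genes separated. In Dsko1Dhot1, 8 of the 11 rose at least 2-fold, against 6.19% of ORFs, and 1 fell, against 7.97%, with a median log2 ratio of 2.13. HSP12 still went from 9650 to 489000, CIN5 from 7230 to 87400 and HOR7 from 15400 to 418000. STL1 stayed at 7350 and 7000, and RHR2 went down from 118000 to 25500. Set against wild type after shock, signal in Dsko1Dhot1 was at least 2-fold lower at 6 genes, against 1.16% of ORFs, and at least 2-fold higher at 0, against 1.48%. The 6 were CWP1, FMP45, GPD1, RHR2, SCM4 and STL1, with log2 ratios from -1.23 at CWP1 to -5.35 at STL1. CIN5, whose promoter held one of the strongest Sko1 peaks and no called Hot1 peak, was at -0.14.

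**Figure D5:**
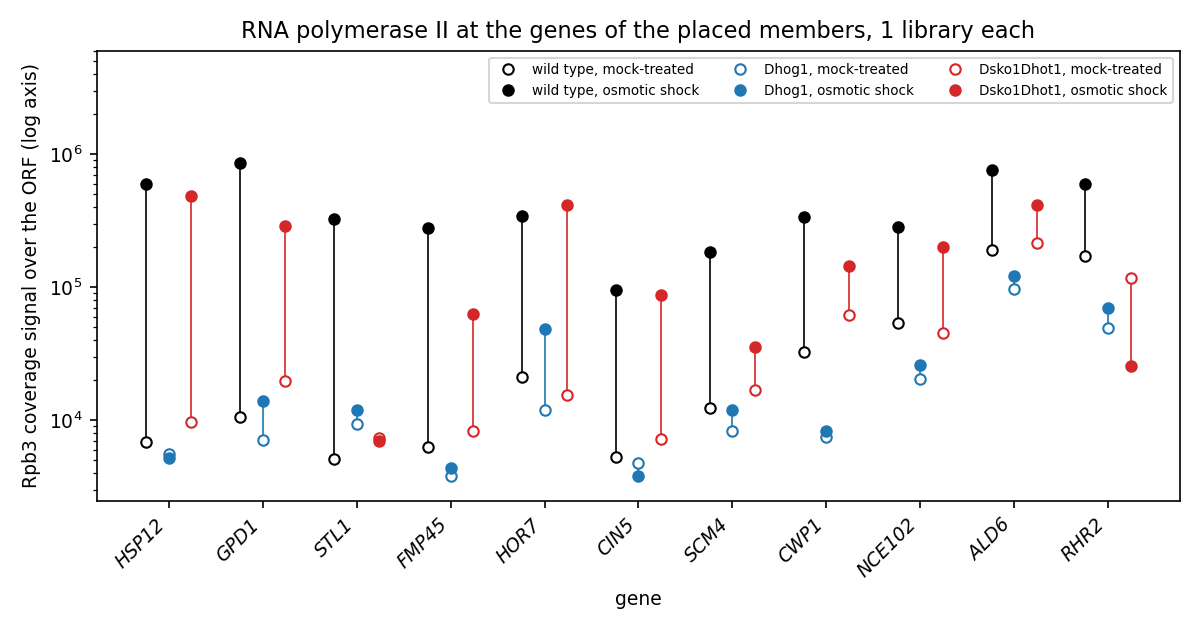
Rpb3 coverage signal over the ORF (y axis, log scale) at the 11 genes of the placed members, ordered by the wild-type rise, with open circles for mock-treated and filled circles for osmotic shock, 1 library each. Wild type (black) rose at all 11 genes, Dhog1 (blue) rose at least 2-fold at HOR7 alone, and in Dsko1Dhot1 (red) STL1 did not rise and RHR2 fell.

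Sko1 is known as a repressor in unstressed cells, so signal in mock-treated Dsko1Dhot1 was set against mock-treated wild type. None of the 11 genes differed by 2-fold: 0 were higher, against 0.2% of ORFs, and 0 lower, against 0.399%. The log2 ratios ran from -0.53 at RHR2 to 0.92 at CWP1, with GPD1 next at 0.85, and the median was 0.39 beside 0.16 for all ORFs. The strain lacked both factors, so the part of Sko1 alone cannot be told apart.

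Hog1 was also present over the coding sequences of these genes, which is how the study chose them. Hog1 enrichment, signal minus the mock immunoprecipitation divided by input, passed 3 SD above the median of all ORFs after shock at 11 of 11 genes, against 1.08% of ORFs, and mock-treated at 0, against 1.35%. It was greatest at SCM4, 5.91, and RHR2, 4.34, and lowest at NCE102, 1.79. In Dsko1Dhot1 after shock 1 of the 11 passed, HOR7 with 3.12, against 0.266% of ORFs, and mock-treated 0 passed, against 1.78%. The mock immunoprecipitation subtracted there came from the wild type.

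The genes on either side of the 11 were read for comparison. Neighbours were named from the gene order of a later assembly, R64, with no coordinates taken from it. Of 22 neighbours 18 were measured. In wild type 5 rose at least 2-fold, against 4.49% of ORFs, and 1 fell, against 7.73%, with a median log2 ratio of 0.55 beside 0.04 for all ORFs. Those that rose were STI1 beside CIN5, HBT1 beside FMP45, GTO3 and MLO1 beside HOR7, and FIT1 beside STL1, and RPL34B beside RHR2 fell.

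The promoter table gave no usable Hog1 values. Taken as headed, 0 of the 11 genes passed 3 SD in Hog1 enrichment after shock, against 0.108% of 6507 promoters, and 0 mock-treated, against 0.0461%. The column headed input instead held values at least 2-fold higher after shock at all 11 genes, for GPD1 23100 mock-treated and 207000 after shock, whereas the column headed Hog1 held 3450 and 8820 there. The heads may thus be out of step with the values, and nothing is read from this table.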

How the data were processed

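The members and the gene lists were chosen with earlier results of these data known. Reads were aligned by the authors to sacCer2, with Bowtie named in the submitters' notes and ELAND in the supplement, neither with a version. The authors called peaks library by library with their version of the PeakSeq method; the deposited lists give height and threshold as tag coverage, enrichment as a ratio to input whose scaling is not stated, a p-value, and a score headed as a q-value that exceeds 1 and was not used. The deposited ORF and promoter tables hold signal, described by the authors as read coverage of each region. Of 18 samples, 17 had columns used here.

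A member's shock height is that of the highest overlapping shock peak, and a fold of 2 counts as a difference. The ORF table had 6334 entries; after removal of 4 that share a name and of the lowest 5% by input, 6013 remained. The rule for named peaks took the 10 highest, the 10 most enriched, the 5 smallest and 5 largest height ratios, the 5 narrowest, 5 just under the limit and every member placed at a listed gene; other peaks were named after their values were seen. The lists of HOG pathway, ion transport, hexose transporter and transcription factor genes could not be placed, as the tables carry no gene coordinates, and only positions listed by the study placed a peak. Sequence motifs were not searched, because no genome of this build was used here. Calculations used Python 3.11.15, numpy 2.4.6 and pandas 2.3.3, and were tested on simulated peaks and tables.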

Additional observations from a re-analysis of the deposited data

Results flagged for a closer look

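At 4 of the 11 genes the Rpb3 ratio of shock over mock-treated had opposite signs in wild type and in a mutant, with 1 library each, and these differences were not tested. In Dhog1 the log2 ratio was -0.28 at CIN5, against 3.95 in wild type, and -0.070 at HSP12, against 6.25. In Dsko1Dhot1 it was -2.17 at RHR2, against 1.79 in wild type, and -0.062 at STL1, against 5.73. The median of all ORFs was -0.049 in Dhog1 and -0.13 in Dsko1Dhot1. HSP12 and STL1 thus lay close to the median of their strain, and RHR2 alone fell at least 2-fold.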

How the results depend on the processing

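No paired analysis was possible because each strain and condition had 1 library. The count of 2443 members became 3959 with a minimum width of 50 bp and 1184 with 200 bp. It became 1434 with a deposited p-value of at most 1e-05 in both lists. Stricter overlap rules gave 2330 and 2381, and a limit of 100 bp on the shock peaks gave 2298. The 194 members at least 2-fold higher in tags became 1836 at a fold of 1.5 and 37 with heights divided by the median of their list. They became 7 with enrichment in place of height and, chosen after seeing the data, 32 with heights over threshold. In smaller subsets, 13 were 2-fold higher among the 100 peaks of greatest enrichment, and 112, chosen after seeing the data, where the shock peak held 1 member. These 2 counts are not shares of the 2443 members. By class of mock-treated enrichment, 10 of the 42 members with 10 or more were 2-fold higher, and 4 of the 87 from 5 to 10. The 0 members at least 2-fold lower became 31 with enrichment and 3 over threshold. The median log2 of 0.71 became 0.15 over the list median, 0.49 among the 100 most enriched, 0.036 over threshold and, reversed in sign, -0.14 with enrichment. Without chromosome 17 and the windows of high threshold on chromosomes 7 and 12, 182 members were 2-fold higher and 1738 overlapped Hot1. The Hot1 overlap of 1783 fell to 918 with centres within 50 bp. Unstressed Dsko1Dhot1 over wild type gave 2 genes higher at a fold of 1.5, against 0 at 2. Wild-type Rpb3 counts were the same under every alternative run. Searches for motifs and for genes by distance from a peak were not run.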

Other observations

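Of the 2443 members, 1556 (63.7%) lay within 1000 bases of another member, with a median gap of 476 bases to the nearest. The widest, at chr7:479130-482729, was 3600 bp mock-treated and 3598 bp after shock, with enrichment of 4.65 and 4.54.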
